A study of Mus musculus with 9 samples.

Results

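The 9 genes described here encode HP1 proteins, Polycomb chromobox proteins and 2 proteins that work with HP1 in histone H3 lysine methylation pathways. They were chosen by name, with earlier results of these data already known. They are Cbx1, Cbx3 and Cbx5 (the HP1 genes), Cbx2, Cbx6, Cbx7 and Cbx8 (Polycomb chromobox genes), and Trim28 and Atf7ip. All 9 were found among the 54232 genes of the deposited table, and all 9 passed the expression filter that left 17602 genes for testing.

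The cells were primary mouse embryonic neural stem cells, labelled as coming from the subventricular zone of the brain and grown on laminin with FGF and EGF. They received a short hairpin RNA against Phf2 (sh900 or sh902) or a non-targeting hairpin (shNT), and RNA was taken 3 days later. Each of the 3 groups held 3 libraries, of which 1 carried no date, 1 the date 30 August and 1 the date 3 September. Phf2 encodes a member of the KDM7 family of histone demethylases. Strain, genotype and the vector of the hairpins are not given in the labels, which also do not say what the dates mark or whether libraries of a group came from separate cultures. A p-value here therefore speaks of the spread among these libraries, some of which may be technical.

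HP1 proteins bind methylated lysine 9 of histone H3 through their chromodomain and pair through a second domain, the chromoshadow domain, which also recruits partner proteins. Polycomb chromobox proteins have a related chromodomain that binds methylated lysine 27 of histone H3 and are subunits of canonical Polycomb repressive complex 1. Trim28 (KAP1) bridges KRAB zinc finger proteins to HP1 and to the lysine 9 methyltransferase SETDB1, and Atf7ip stabilises SETDB1 in the nucleus. In neural stem cells both systems are known for silencing genes of other lineages and repeated sequences.

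The libraries held between 23212472 and 32392496 estimated counts, and levels are given as CPM, counts scaled to the total of their library. The targeted gene, Phf2, was lower in all 6 hairpin libraries than in all 3 shNT libraries, at 19.0, 13.5 and 26.8 CPM with sh900, 25.7, 17 and 29.2 CPM with sh902, and 57.4, 51.6 and 49.5 CPM with shNT, each in the order undated, 30 August, 3 September, which is kept below. A two-sided exact permutation test gave p = 0.0119, the smallest that 84 assignments of the libraries allow. All 13 stem cell markers, Nes and Sox2 among them, passed the filter, with summed levels of 9789.5 to 13027 CPM with sh900, 8453 to 10727 CPM with sh902 and 7652 to 9029.9 CPM with shNT. A large part of these sums was Vim, at 3821 to 6853, 3024 to 5808 and 1790 to 2879 CPM in the same order. The median log2 fold change of the 13 genes, given below, was negative, so the sums do not stand for most of them. Microglial markers summed to at most 3.33 CPM and endothelial markers to at most 8.38 CPM in any library, and 5 of 6 microglial genes did not pass the filter. Proliferation differed between libraries of 1 group: the cycling-cell marker Mki67 stood at 397, 176 and 343 CPM with sh900, at 537, 299 and 472 CPM with sh902, and at 297, 849 and 61.2 CPM with shNT.

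Tests came from edgeR's quasi-likelihood fit over all 17602 genes, with Benjamini-Hochberg adjusted p under 0.05 as the call. Without a term for the date label this fit called 0 genes in any comparison. An unadjusted p under 0.05 was reached by 16% of genes when both hairpins were averaged against shNT, by 14.7% with sh900, by 15.8% with sh902 and by 14.4% between the hairpins. DESeq2 called 755 genes for that mean on the same design, and limma-voom called 0. When the date label entered as a replicate block, edgeR called 2054 genes (11.7% of those tested), 6.08% higher and 5.59% lower. Log2 fold changes below are from the blocked fit unless stated, and edgeR called none of them without the block. The block treats the undated libraries as sharing a label, though no date ties them together.

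Of the 9 genes, Cbx5 was the 1 called when both hairpins were averaged, and it was lower (1 of 9, beside 5.59% of all genes called lower). Atf7ip was called lower with sh902. For the mean of both hairpins the fitted log2 fold change was negative at 7 of the 9 genes and positive at Cbx6 and Trim28. Their median was -0.26, and the median over all tested genes was -0.02. All 3 sh900 libraries were below all 3 shNT libraries for Cbx1, Cbx3, Cbx5 and Cbx2 (4 of 9 genes, beside 8.58% of all tested genes).

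**Figure D1:**
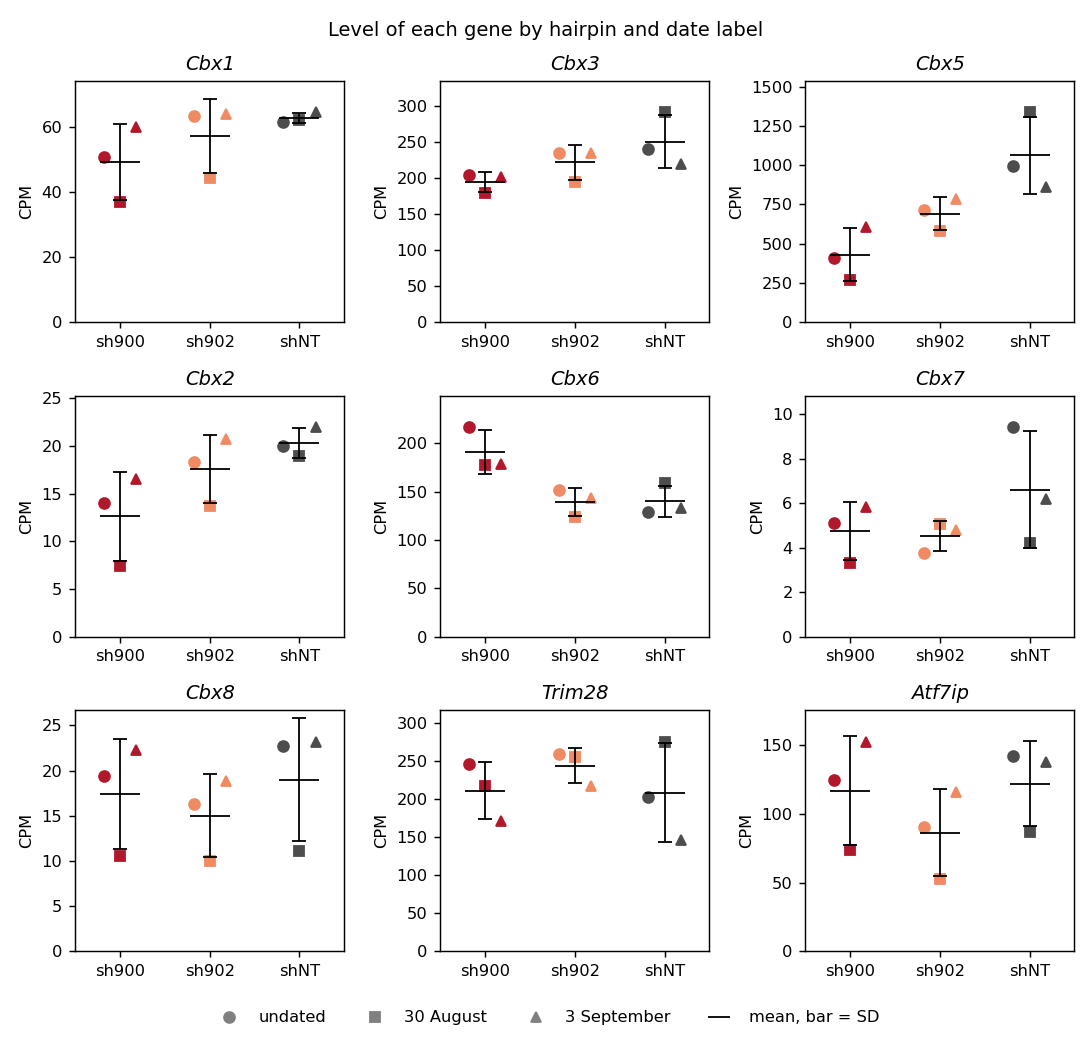
Level of each of the 9 genes in every library, in CPM, by hairpin (sh900, sh902, shNT) and date label (symbol); the horizontal line is the mean of 3 libraries and the bar its SD. Cbx5 lies below every shNT library in all 6 hairpin libraries, the sh900 libraries of Cbx1, Cbx3 and Cbx2 lie below shNT while those of sh902 overlap it, and the 3 sh900 libraries of Cbx6 lie above the rest.

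Cbx5 encodes HP1 alpha, the HP1 protein most concentrated in heterochromatin. The gene (ENSMUSG00000009575, chr15:103191544-103239816 on GRCm38, minus strand) stands head to head with Hnrnpa1, the gene of an abundant splicing regulator. Their starts in GENCODE lie 616 bases apart. The bases before each start are shown because both genes are read outward from the same stretch of DNA. They are the 250 bases before the start in RefSeq (GRCm38.p6), chr15:103239853-103240102 on the minus strand for Cbx5 and chr15:103240147-103240396 on the plus strand for Hnrnpa1, each 5′ to 3′ in its gene's direction. RefSeq starts differ from those of GENCODE, and for Cbx5 the one next to Hnrnpa1 is used. RefSeq has another Cbx5 start inside the gene, at chr15:103215352, whose stretch (51.2% G and C, 1 GC box, no CCAAT box) is not shown. Capitals mark CCAAT boxes (CCAAT) and GC boxes (GGGCGG) on either strand.
Cbx5: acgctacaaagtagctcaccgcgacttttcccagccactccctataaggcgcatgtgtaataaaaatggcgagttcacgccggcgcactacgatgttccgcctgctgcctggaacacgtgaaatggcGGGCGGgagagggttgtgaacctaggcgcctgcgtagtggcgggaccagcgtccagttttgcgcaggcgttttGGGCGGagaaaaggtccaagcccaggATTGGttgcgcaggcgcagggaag
Hnrnpa1: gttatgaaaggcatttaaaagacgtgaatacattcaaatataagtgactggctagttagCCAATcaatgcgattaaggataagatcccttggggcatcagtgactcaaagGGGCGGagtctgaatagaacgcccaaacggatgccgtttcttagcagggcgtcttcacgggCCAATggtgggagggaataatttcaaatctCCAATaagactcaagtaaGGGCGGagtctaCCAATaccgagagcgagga
The Cbx5 stretch held 1 CCAAT box and 2 GC boxes at 59.2% G and C, and that of Hnrnpa1 held 4 CCAAT boxes and 2 GC boxes at 46.0%. Of 32851 mouse promoter stretches of this length, 33.8% held a CCAAT box and 32.7% a GC box, and their median G and C content was 52.4%. The cell cycle element TTTGAA was found at 2 places before Hnrnpa1 and at none before Cbx5, beside 16.0% of all stretches with a match. The TATA box letters TATAAA were in neither stretch, beside 12.4% of all stretches that hold them.

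Cbx5 stood at 411, 269 and 609 CPM with sh900, at 713, 578 and 785 CPM with sh902, and at 994, 1337 and 863 CPM with shNT. These levels rest on 7504 to 35577 counts per library, so the differences between libraries far exceed counting error. Every hairpin library was below every shNT library, which held for 2.62% of all tested genes, and every sh900 library was below the sh902 library of its label, which held for 31.1%. Group means were 430 ± 170 CPM with sh900, 692 ± 105 CPM with sh902 and 1065 ± 245 CPM with shNT (SD, n = 3 each). In bulk RNA, fewer cells of a type and less RNA per cell cannot be told apart.

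Relative to the shNT library of its own label, Cbx5 was at 41.4%, 20.1% and 70.5% with sh900 and at 71.8%, 43.3% and 90.9% with sh902. It was below that library in 6 of 6 cases, as were 12.2% of all tested genes. The difference was widest on 30 August, where shNT was highest, and narrowest on 3 September. Averaged over both hairpins, its log2 fold change was -1.0 ± 0.23 (SE, edgeR adjusted p = 0.0332), or 0.498 of the shNT level, and -0.97 ± 0.23 (SE, adjusted p = 0.194) without the block. With sh900 alone Cbx5 fell by 1.33 ± 0.28 on the log2 scale (SE, adjusted p = 0.0302, the 1 of 9 genes called, beside 8.85% of all genes called and 3.45% called lower), and the value was -1.29 ± 0.28 (SE, adjusted p = 0.149) without the block. With sh902 alone the log2 fold change was -0.68 ± 0.28 (SE, adjusted p = 0.153), which was not called, and it was -0.26 without the 30 August shNT library. The 2 hairpins were not shown to differ, with a log2 fold change of 0.65 for sh902 over sh900 (95% interval 0.01 to 1.29, adjusted p = 0.211).

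The call for the mean rested on the libraries kept. It was lost without the undated, 30 August or 3 September sh902 library (adjusted p = 0.0986, 0.0855 and 0.0934), without the undated or 30 August sh900 library (adjusted p = 0.0911 and 0.0906) and without the undated shNT library (adjusted p = 0.15). It held without the 3 September sh900 library and without either dated shNT library, but the value without the 30 August shNT library was -0.60. The sh900 call held in the same 3 fits of 9 and was lost in the other 6, with adjusted p from 0.0552 to 0.161. It was also lost when only the sh900 and shNT libraries were fitted with the block (adjusted p = 0.0983). On the 6 dated libraries alone the value for the mean was -1.10 with the block (adjusted p = 0.26).

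Cbx1 encodes HP1 beta, which binds heterochromatin and pairs with the other HP1 proteins. It stood at 50.9, 37.0 and 60.1 CPM with sh900, at 63.4, 44.2 and 64.1 CPM with sh902, and at 61.5, 62.1 and 64.5 CPM with shNT. The shNT libraries differed by only 1.05 times between lowest and highest, whereas in both hairpin groups the 30 August library was the lowest. The sh900 libraries all lay below shNT, and 2 of the 3 sh902 libraries did not. The log2 fold change was -0.26 ± 0.13 (SE, adjusted p = 0.22), which was not called. A processed pseudogene, Gm11517, lies within Cbx1 and did not pass the filter.

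Cbx3 encodes HP1 gamma, which is found in transcribed genes as well as in heterochromatin. Its levels were 204, 179 and 202 CPM with sh900, 235, 194 and 236 CPM with sh902, and 240, 291 and 219.7 CPM with shNT. All 3 sh900 libraries were below all 3 shNT libraries, the sh902 libraries overlapped shNT, and the distance was greatest on 30 August. Its log2 fold change was -0.26 ± 0.13 (SE, adjusted p = 0.248), also not called.

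**Figure D2:**
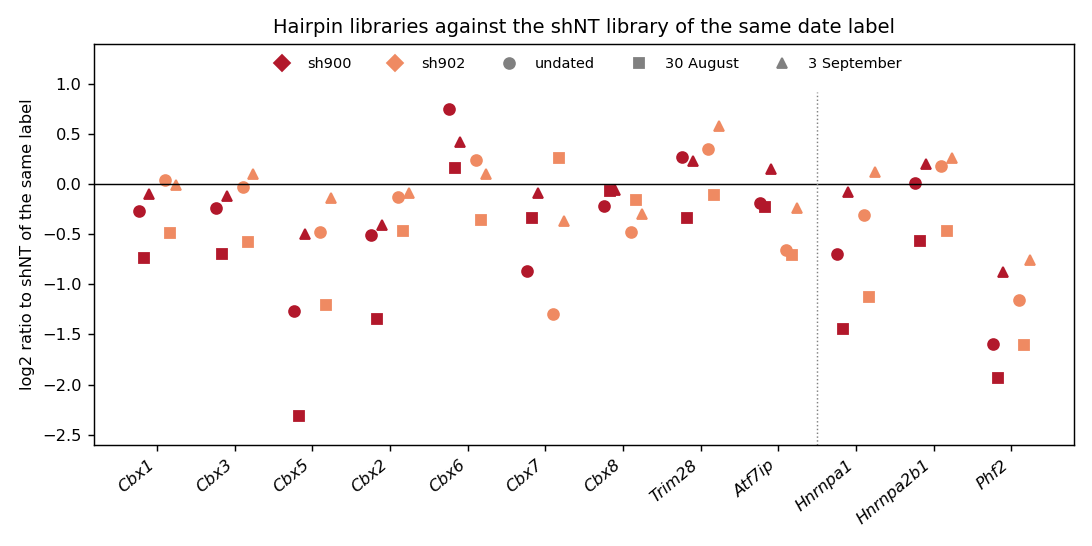
Log2 ratio of each hairpin library to the shNT library of the same date label (prior count 2), by gene; color gives the hairpin and symbol the label, and genes right of the dotted line are the neighbours and Phf2. Cbx5, Cbx2 and Cbx8 are below 0 in 6 of 6 libraries, Cbx8 by at most 0.48, and Trim28 is below 0 only on 30 August.

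Per kilobase of merged exons, which allows comparison between genes, Cbx5 led the 3 HP1 genes in shNT cells at 118.2 ± 27.2 CPM per kb, against 41.8 ± 6.15 CPM per kb for Cbx3 and 14.7 ± 0.38 CPM per kb for Cbx1 (SD, n = 3 each). With sh900 the lead of Cbx5 (47.7 ± 18.9 CPM per kb) over Cbx3 (32.5 ± 2.30 CPM per kb) was within the spread, and on 30 August the 2 genes were level at 29.9 CPM per kb. With the longest transcript in place of merged exons, the sh900 mean of Cbx3 (66.6 CPM per kb) was above that of Cbx5 (48.8 CPM per kb), so this order depends on the length used. Of the other genes in shNT cells, Trim28 (50.2 ± 15.6 CPM per kb) was within the spread of Cbx3, and Atf7ip (5.89 ± 1.49 CPM per kb) was well below both (SD, n = 3 each). The summed HP1 level was 91.6, 68.5 and 115 CPM per kb with sh900, 133, 107 and 141 CPM per kb with sh902, and 165, 212 and 148 CPM per kb with shNT. All 6 hairpin sums were below all 3 shNT sums. Cbx5 is the largest part of the shNT sums, so this largely repeats its own result. For Cbx1 and for Cbx3 the sh902 libraries overlapped shNT.

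Cbx5 made up 49.9%, 43.7% and 58.6% of the summed HP1 level with sh900, 59.4%, 60% and 61.6% with sh902, and 66.9%, 70.2% and 64.9% with shNT. Each hairpin library had a smaller Cbx5 share than each shNT library, by 11.8 percentage points on average (two-sided exact permutation test, 84 assignments, p = 0.0476). Permuted within labels, the same difference gave an exact p = 0.0741 over 27 assignments, where the smallest possible is 0.037. Cbx5 itself was lower in every hairpin library, and this test was chosen with earlier results of these data known. Its p-values are therefore no evidence separate from the level of Cbx5. The share of Cbx3 was correspondingly 36.7 ± 7.22% with sh900, 29.2 ± 1.29% with sh902 and 24.0 ± 0.963% with shNT (SD, n = 3 each), a value fixed in part by that of Cbx5.

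**Figure D3:**
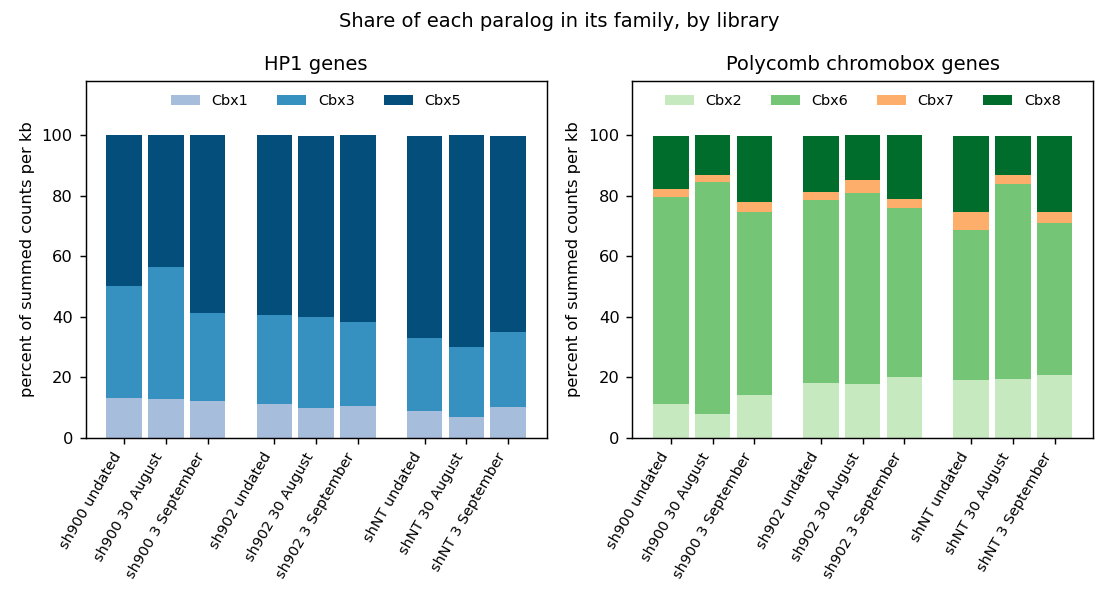
Share of each gene in the summed counts per kb of merged exons of its family, in percent, by library. In the HP1 panel the Cbx5 segment is 43.7% to 61.6% in hairpin libraries and 64.9% to 70.2% in shNT libraries; in the Polycomb panel Cbx6 is the largest segment in all 9 libraries.

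Among the Polycomb chromobox genes, Cbx6 was the most abundant per kilobase in every library. It stood at 217, 177 and 179 CPM with sh900, at 152, 123 and 143 CPM with sh902, and at 128, 158 and 134 CPM with shNT. All 3 sh900 libraries were above all 3 shNT libraries, as held for 9.11% of all genes, and above all 3 sh902 libraries, as held for 9.36%. The log2 fold change was 0.49 ± 0.16 with sh900 (SE, adjusted p = 0.0947) and -0.04 ± 0.16 with sh902 (SE, adjusted p = 0.909), neither called. Between hairpins it was -0.53 ± 0.16 for sh902 over sh900 (SE, adjusted p = 0.102). Of the 9 genes 0 were called in that comparison, beside 4.22% of all genes. When the blocked fit held only the 2 hairpin groups, it called Cbx6 and Atf7ip lower and Cbx5 higher with sh902 than with sh900, among 2595 genes called (15.5% of those tested). Without the 30 August shNT library the blocked fit called the same 3 genes between the hairpins, beside 10.9% of all genes, and called Cbx6 higher with sh900 (adjusted p = 0.0299), beside 15.9% of all genes called in that comparison. Npcd shares the strand of Cbx6 and overlaps it, with at most 1.35 CPM in any library.

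Cbx2 encodes a chromobox protein that compacts nucleosomes. Its levels were 14.0, 7.39 and 16.5 CPM with sh900, 18.3, 13.7 and 20.7 CPM with sh902, and 20, 19 and 22 CPM with shNT. It was below the shNT library of its label in 6 of 6 hairpin libraries, by 0.09 to 1.35 on the log2 scale, as were 12.2% of all tested genes. Of these libraries 5 were below all shNT libraries. The log2 fold change was -0.71 ± 0.20 with sh900 (SE, adjusted p = 0.0611) and -0.26 ± 0.19 with sh902 (SE, adjusted p = 0.413), so edgeR called neither. DESeq2 with the block called Cbx2 with sh900 (adjusted p = 0.0232), beside 14.7% of all genes.

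Cbx8, whose protein is another alternative subunit at the same place in the complex, stood at 19.4, 10.6 and 22.3 CPM with sh900, at 16.3, 9.98 and 18.8 CPM with sh902, and at 22.7, 11.1 and 23.2 CPM with shNT. In each group the 30 August library held about the same low level, and the label separated the libraries more than the hairpin did. It was below shNT of the same label in 6 of 6 libraries, by 0.06 to 0.48 on the log2 scale, as were 12.2% of all tested genes. The log2 fold change of the mean was -0.21 ± 0.13 (SE, adjusted p = 0.32), which was not called. Cbx2 and Cbx8 are neighbours on chromosome 11, transcribed toward each other.

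Cbx7, the subunit best known from self-renewing embryonic stem cells, was the lowest of the 9 genes, with 92 to 253 counts per library. It stood at 5.12, 3.30 and 5.83 CPM with sh900, at 3.78, 5.05 and 4.78 CPM with sh902, and at 9.42, 4.21 and 6.21 CPM with shNT. The undated shNT library stood apart from the other 8, and the groups overlapped. Its log2 fold change was -0.46 ± 0.26 (SE, adjusted p = 0.29), not called, and its share of the summed Polycomb chromobox level was 3.00% in hairpin libraries and 4.19% in shNT libraries (exact permutation p = 0.143). Without the undated shNT library the difference in share was -0.322 points in place of -1.19. Apobec3 overlaps Cbx7 on the opposite strand only at chr15:79915807-79915906, a small part of either gene. Over its whole length Apobec3 stood at 19.9 to 29.6 CPM, above Cbx7 itself. The labels do not say that strand was kept, so reads of the overlap cannot be told apart.

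The 4 Polycomb genes together summed to 29.8, 21.8 and 27.7 CPM per kb with sh900, to 23.6, 18.3 and 24.2 CPM per kb with sh902, and to 24.5, 23.1 and 25.0 CPM per kb with shNT. The groups overlapped, unlike the HP1 sums, of which Cbx5 made up 64.9% to 70.2% in shNT libraries. Per kilobase in shNT cells, Cbx8 (5.18 ± 1.86 CPM per kb) and Cbx2 (4.77 ± 0.357 CPM per kb) were within each other's spread, between Cbx6 (13.2 ± 1.51 CPM per kb) and Cbx7 (1.02 ± 0.405 CPM per kb; SD, n = 3 each).

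Trim28, the bridge between KRAB zinc finger proteins and HP1, was measured at 246, 218 and 171 CPM with sh900, at 259.6, 256 and 218 CPM with sh902, and at 204, 276 and 146 CPM with shNT. On 30 August both hairpin libraries were below shNT, and at the other labels both were above it; 11.1% of all genes likewise had both hairpins below shNT on 30 August and above it on 3 September. The log2 fold change of the mean was 0.17 ± 0.14 (SE, adjusted p = 0.477), which was not called, and per label the ratios ran from -0.34 to 0.58. Mki67 likewise had its highest shNT level on 30 August and its lowest on 3 September, and its part in the Trim28 values was not tested. By the GENCODE gene boundary, Slc27a5 is head to head with Trim28, 922 bases away, and it did not pass the filter. By the same boundary Zbtb45 overlaps Trim28 on the opposite strand, at 5.78 to 10.5 CPM. The RefSeq start of Trim28, at chr7:13024152, lies past Zbtb45 (chr7:13003898-13010034), so neither arrangement holds from that start.

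Atf7ip, which encodes the cofactor of SETDB1, stood at 125, 73.8 and 153 CPM with sh900, at 90.2, 52.9 and 116 CPM with sh902, and at 142, 86.6 and 138 CPM with shNT. In every group the 30 August library was the lowest, and at each label sh902 was the lowest of the 3 groups. It was below sh900 at all 3 labels, as were 22.8% of all genes. Against shNT of the same label the log2 ratio was -0.66, -0.71 and -0.24 with sh902, and -0.19, -0.23 and 0.15 with sh900. Atf7ip fell by 0.56 ± 0.13 on the log2 scale with sh902 (SE, adjusted p = 0.0353, the 1 of 9 genes called, beside 10.5% of all genes called and 5.39% called lower), and without the block the value was -0.53 ± 0.32 (SE, adjusted p = 0.446). With sh900 the log2 fold change was -0.05 ± 0.13 (SE, adjusted p = 0.857). The difference of the hairpins was -0.52 ± 0.13 for sh902 over sh900 (SE, adjusted p = 0.0671), so they were not shown to differ. The sh902 call held in 2 of the 9 blocked fits that left out 1 library, those without the 30 August or 3 September shNT library. It was lost without any of the other 7, the undated, 30 August or 3 September library of either hairpin and the undated shNT library, with adjusted p from 0.0658 to 0.198, and when only the sh902 and shNT libraries were fitted with the block (adjusted p = 0.153).

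The neighbour of Cbx5, Hnrnpa1, stood at 407, 284 and 451 CPM with sh900, at 529.6, 355 and 518 CPM with sh902, and at 658, 778 and 476.2 CPM with shNT. Its order over the libraries was close to that of Cbx5, with Pearson's r = 0.93 between their log2 CPM over 9 libraries that share 3 groups and 3 labels, given as a description. Cbx5 had 1.01, 0.949 and 1.35 times the CPM of Hnrnpa1 with sh900, 1.35, 1.63 and 1.51 times with sh902, and 1.51, 1.72 and 1.81 times with shNT. The log2 fold change of Hnrnpa1 was -0.61 ± 0.21 (SE, adjusted p = 0.095), which was not called. Hnrnpa1 has processed copies in the genome, so its estimated counts are less certain. Cbx3 also stands head to head with an hnRNP gene, Hnrnpa2b1, 466 bases away on chromosome 6. Hnrnpa2b1 stood at 664, 614 and 628 CPM with sh900, at 749, 658 and 655 CPM with sh902, and at 659.7, 914 and 547 CPM with shNT, and Pearson's r with Cbx3 was 0.72.

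**Figure D4:**
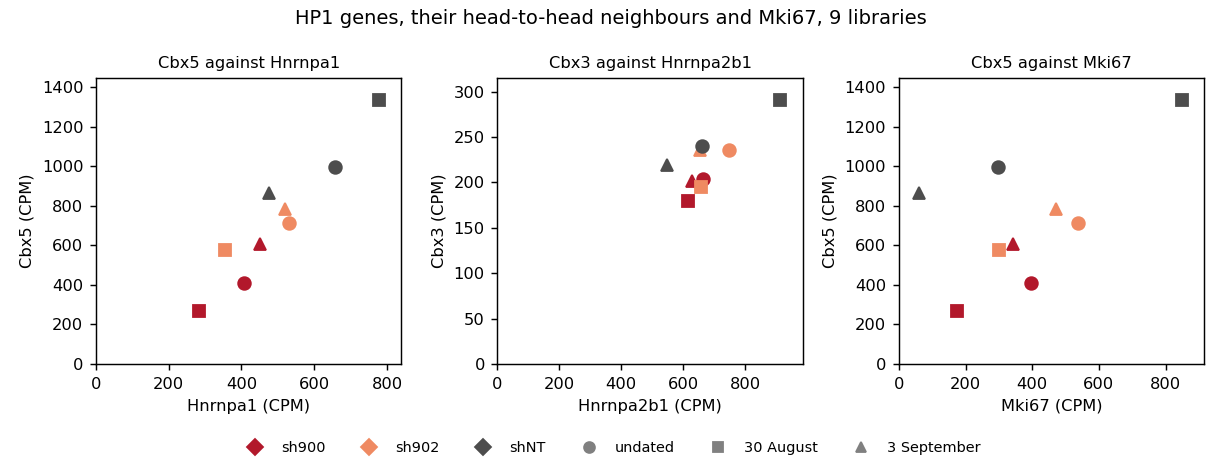
Level in CPM of Cbx5 against its head-to-head neighbour Hnrnpa1, of Cbx3 against Hnrnpa2b1 and of Cbx5 against Mki67, 1 point per library, with color for the hairpin group and symbol for the date label. Cbx5 and Hnrnpa1 rise together over the 9 libraries (r = 0.93), and Cbx5 and Mki67 less closely (r = 0.26; 0.9 for ratios to shNT of the same label).

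Cell cycle and differentiation genes also differed between libraries. The 20 mitosis genes had median log2 ratios to shNT of the same label of 0.33, -2.04 and 2.54 with sh900 and of 0.58, -1.60 and 2.94 with sh902, and 0 of 20 were called. Mki67 itself had log2 ratios of 0.42, -2.27 and 2.49 with sh900 and of 0.86, -1.5 and 2.95 with sh902. Pearson's r of Cbx5 with Mki67 was 0.26 for log2 CPM over 9 libraries and 0.9 for the 6 ratios to shNT of the same label, which share 3 shNT libraries. Over the same 6 ratios, r with Mki67 was 0.94 for Cbx3, 0.91 for Trim28, 0.89 for Cbx1 and 0.46 for Atf7ip, all given as descriptions. For Cbx2, Cbx6, Cbx7 and Cbx8 it was 0.76, 0.36, -0.19 and -0.31. Hnrnpa1 had r = 0.99 with Mki67, and the targeted gene Phf2 had 0.95 with Mki67 and 0.95 with Cbx5. The same r over all genes is not given, so these values have no background beside them. Of the 13 stem cell markers 2 were called higher and 3 lower for the mean, with a median log2 fold change of -0.46. Of all tested genes 6.08% were called higher and 5.59% lower, shares that also stand beside the other marker lists here. Nes (1.66) and Vim (0.95), intermediate filament genes with high counts, were higher, and Prom1 (-1.83), Hes5 (-2.09) and Pax6 (-0.76) were lower, named here after their values were seen. Sox2 (-0.34, adjusted p = 0.195) was not called. Astrocyte markers summed to 600.2 to 3172 CPM with sh900, 739 to 2415 CPM with sh902 and 711 to 5826 CPM with shNT, with 2 of 6 called lower for the mean. Of the oligodendrocyte lineage markers 5 of 8 were called lower, while the most abundant, Olig1 (-0.09) and Olig2 (-0.21), were not called. Sums of these 8 markers overlapped, at 2200 to 2804 CPM with sh900, 1275 to 2101 CPM with sh902 and 2021 to 2919 CPM with shNT. Of the neuronal markers 5 of 7 were called lower. Neuronal sums were 559 to 1173 CPM with sh900, 478 to 929 CPM with sh902 and 679 to 2036 CPM with shNT. Most of each sum was Map2 alone, at 549 to 1092, 465 to 871 and 660 to 1719 CPM in the same order. The part of proliferation and of these cell types in the levels of the 9 genes was not tested.

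For each of the 9 genes, the genes most alike in level were found by Pearson's r of log2 CPM over the 9 libraries among 9796 genes with a mean of at least 10 CPM. Cbx5 was most like Psip1 (r = 0.981), which encodes a reader of methylated lysine 36 of histone H3. Cbx1 was most like the DNA repair glycosylase gene Mbd4 (r = 0.963) and Cbx3 like the ubiquitin ligase gene Ube4b (r = 0.969). Cbx6 was most like the heat shock cochaperone gene Dnajb1 (r = 0.948). For Cbx7 the first was Tnrc18 (r = 0.946) and the second Ring1 (r = 0.94), the ubiquitin ligase subunit of Polycomb repressive complex 1. Atf7ip was most like Sez6 (r = 0.991) and Trim28 like the lipoprotein receptor gene Scarb1 (r = 0.98). With 9 libraries that share labels and so many genes compared, such values are descriptions of these libraries.

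The genes that work around HP1 were described by counts, for the mean of both hairpins with the block, beside 6.08% of all genes called higher and 5.59% called lower. Called genes named from these lists were picked by p on these same values, so the order of their libraries is no separate evidence. Of 10 tested genes of the lysine 9 methylation pathway, 0 were called higher and 2 lower, with a median log2 fold change of -0.14. One was Zfp57, a KRAB zinc finger gene that acts with Trim28 at imprinted loci, at 4.29, 4.67 and 9.69 CPM with sh900, 4.75, 3.94 and 5.56 CPM with sh902, and 13.6, 10.5 and 15.4 CPM with shNT. All 6 hairpin libraries were below all 3 shNT libraries, as held for 2.62% of all tested genes, and the log2 fold change was -1.30 ± 0.19 (SE, adjusted p = 0.00858). The other was Trim33, a relative of Trim28, at 68.6, 55.6 and 101 CPM with sh900, 85, 67.6 and 97.4 CPM with sh902, and 136, 102.3 and 143 CPM with shNT. Its log2 fold change was -0.69 ± 0.10 (SE, adjusted p = 0.00888), and each of these 2 calls held in 8 of the 9 blocked fits that left out 1 library. The methyltransferase genes Setdb1 (-0.11 ± 0.13, SE) and Suv39h1 (-0.07 ± 0.25, SE) were not called. Without the block the adjusted p was 0.182 for Zfp57 and 0.203 for Trim33. Of the 4 genes of the HUSH silencing complex, 0 were called (median -0.04).

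Of 21 other HP1 partners and heterochromatin genes, 0 were higher and 2 lower, with a median of -0.15. Adnp, whose protein joins HP1 and the remodeller Chd4 in 1 complex, had a log2 fold change of -0.61 ± 0.13 (SE, adjusted p = 0.0252). Pogz, for a zinc finger protein that binds HP1, had -0.47 ± 0.11 (SE, adjusted p = 0.0297). Both were below shNT of the same label in 6 of 6 libraries, as were 12.2% of all tested genes. Their calls held in only 3 and 2 of the 9 fits that left out 1 library, and without the block the adjusted p of each was 0.185.

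Around the Polycomb chromobox genes, 1 of 22 genes of Polycomb repressive complex 1 was called, lower (median -0.08), and 1 of 12 of complex 2, lower (median -0.22). Pcgf2, a subunit gene of canonical complex 1, stood at 2.84, 3.05 and 3.51 CPM with sh900, at 1.25, 1.67 and 1.12 CPM with sh902, and at 4.91, 4.13 and 9.59 CPM with shNT. All 6 hairpin libraries were below every shNT library, as held for 2.62% of all tested genes, with a log2 fold change of -1.53 ± 0.29 (SE, adjusted p = 0.0166). Epop, for a protein that links complex 2 to elongin, had -1.22 ± 0.23 (SE, adjusted p = 0.0175). These calls held in 5 and 6 of the 9 fits that left out 1 library, and without the block the adjusted p was 0.182 for Pcgf2 and 0.234 for Epop. Ring1 (-0.12 ± 0.15, SE) and the lysine 27 methyltransferase gene Ezh2 (-0.49 ± 0.18, SE, adjusted p = 0.118) were not called. Of 17 other chromodomain genes, the remodeller gene Chd7 was lower (-0.61 ± 0.13, SE, adjusted p = 0.022), and Cdyl (0.52 ± 0.12, SE, adjusted p = 0.0314) and Cdyl2 (0.81 ± 0.21, SE, adjusted p = 0.0481), which encode readers of lysine 27 and lysine 9 methylation, were higher. These 3 calls held in 3, 2 and 1 of the 9 fits that left out 1 library, and without the block the adjusted p was 0.284 for Chd7, 0.277 for Cdyl and 0.264 for Cdyl2.

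Of the genes that Polycomb is known to silence, only Hox and Cdkn2 genes were examined, and most of these did not pass the filter. Of 41 Hox and Cdkn2 genes in the table, 9 passed the filter, and 0 of 9 were called for the mean of both hairpins. Cdkn2b, a cell cycle inhibitor gene, stood at 23.4, 42.2 and 27.5 CPM with sh900, at 42.5, 68.0 and 35.2 CPM with sh902, and at 13.9, 16.7 and 29.9 CPM with shNT, with a log2 fold change of 0.93 ± 0.30 (SE, adjusted p = 0.0908). Cdkn2a, its neighbour, had 0.37 ± 0.14 (SE, adjusted p = 0.122). The 7 Hox genes that passed had at most 25.7 CPM in any library, and with sh902 Hoxa3 was called lower (log2 fold change -1.86, adjusted p = 0.0474, and -1.74, adjusted p = 0.57, without the block). Its levels in that group were 0.281, 1.58 and 0 CPM, against 1.04, 4.77 and 0.233 CPM with shNT. Cdkn2a, Cdkn2b and Hoxa3 were picked for naming after their values were seen.

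**Figure D5:**
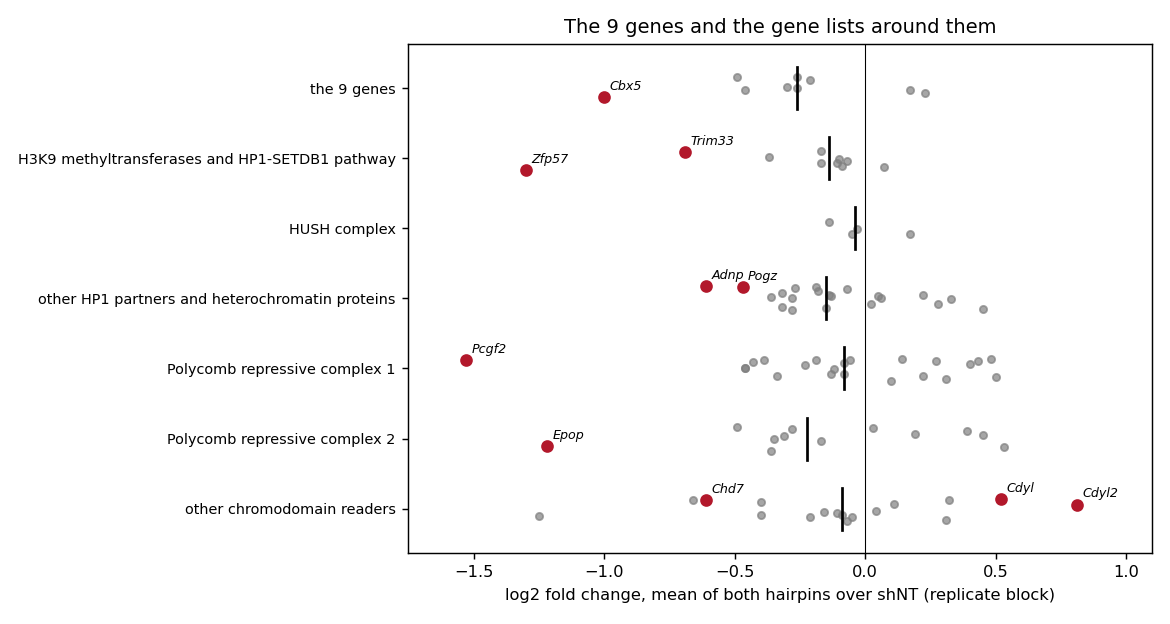
Log2 fold change of the mean of both hairpins over shNT with the replicate block, for the 9 genes and the lists around them; each point is a gene, filled red points are called, and the black tick is the list's median. Medians lie between -0.26 and -0.04, Zfp57 and Pcgf2 are furthest to the left among the called genes, and Cdyl and Cdyl2 are the called genes to the right of 0.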

How the data were processed

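The 9 RNA-seq libraries of neural stem cells fall into groups by their treatment label. The authors deposited 1 table of estimated counts per Ensembl gene, held as whole numbers, so rounding changed none. Per the submitters' processing notes reads were handled with STAR 2.5.0a, RSEM, Trimmomatic 0.36, cutadapt and FastQC on GRCm38; their settings and annotation are not given in the sources used. RSEM divides reads that fit several genes by a model, so paralogs and overlapping genes are uncertain. Symbols and coordinates came from GENCODE M21 (54165 identifiers matched, 67 did not).

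The 9 genes, the gene lists and the tests were chosen with earlier results of these data known. Genes passing edgeR 4.0.16's default filter were fitted in R 4.3.3 by its quasi-likelihood F test with TMM factors, all 3 groups in 1 model. CPM are scaled by library total. SE is the log2 fold change over the square root of F. The scripts were tested on simulated counts. Within groups no pair of libraries agreed within sampling noise (lowest chi-square per degree of freedom 56.5).

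Titles of different groups share dates. Deviations from group means correlated at 0.40 to 0.63 for 30 August, 0.46 to 0.65 for 3 September, 0.08 to 0.40 for the undated libraries and -0.66 to 0.30 across labels. On these grounds the dated libraries count as paired, and the fit with the label as a replicate block stands beside the unblocked one. The block and the ratios by label also pair the undated libraries. Their correlations overlap those across labels, so that pairing is not shown by these values. The unblocked fit was the planned one. The report gives blocked log2 fold changes because the unblocked fit called 0 genes, a choice made with this known. Alternatives were DESeq2 1.42.0, limma-voom (limma 3.58.1), RLE factors, library size alone, other filters, other lengths and leaving out each library. Named genes were the 9, Phf2, overlapping and head-to-head neighbours, list genes called with the block (up to 4 a list, by p), the genes most alike in level (some are not reported here), and Mki67, Gfap and Pdgfra with marker sums; other exceptions are marked. Setdb1, Suv39h1, Ezh2, Sox2, Map2, Olig1 and Olig2 were also named, outside this rule. Shares were tested by exact permutation. Promoter stretches are RefSeq's; 8 of the 9 genes had one.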

Additional observations from a re-analysis of the deposited data

Results flagged for a closer look

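Trim28 was picked out because both hairpin libraries moved one way at 1 label and the other way at another. Relative to shNT of the same label, the mean log2 ratio of both hairpins was lower on 30 August than among the undated libraries, by -0.54, and higher on 3 September than on 30 August, by 0.63. With 1 library per hairpin and label these differences were not tested. Of all tested genes, 11.1% likewise had both hairpins below shNT on 30 August and above it on 3 September.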

How the results depend on the processing

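Of 1300 alternative values for the 9 genes and Phf2 in 4 comparisons, 1272 kept their direction and 28 turned. Turned log2 values were Trim28 with sh900 (-0.05 and -0.09) and Cbx7 between hairpins (0.11 and 0.07) on the dated libraries with and without the block, Atf7ip with sh900 (0.01 dated, no block; 0.04 with no low-count filter) and Cbx6 with sh902 (0.02 with no filter). Leaving out 1 library turned others within these ranges over both fits: Trim28 -0.08 to 0.42 (mean), -0.14 to 0.36 (sh900), -0.01 to 0.49 (sh902) and -0.04 to 0.27 (between hairpins); Cbx8 -0.34 to 0.16 and Atf7ip -0.20 to 0.21 (sh900); Cbx1 -0.28 to 0.01 and Cbx6 -0.19 to 0.12 (sh902); Cbx7 -0.41 to 0.20 (between hairpins). None of these was called. The causes were not tested.

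Calls depended on the block for most genes. Counts of all genes called, in the order mean of both hairpins, sh900, sh902, sh902 against sh900, were 0 without the block and 2054, 1557, 1850 and 743 with the replicate block. On the dated libraries with the block they were 1 and 4 for the mean and sh900. DESeq2 gave 755, 786, 848 and 1035, and 3014, 2590, 2833 and 1783 with the block. Limma-voom gave 1 between hairpins, and 2312, 1840, 2146 and 877 with the block. Blocked, RLE factors gave 2038, 1558, 1856 and 769 and library size alone 1982, 1441, 1826 and 699. No filter gave 8, 58, 35 and 139 without the block, and a filter at 1 CPM 57 between hairpins. Settings chosen after seeing the data were the compared groups alone with the block (472 for sh900, 2595 between hairpins) and the block at adjusted p under 0.01 (339, 182 and 234 for the mean, sh900 and sh902). Of the 9 genes, each blocked tool called 1 for the mean (Cbx5), 1 with sh902 (Atf7ip) and 1 with sh900 (Cbx5), except that DESeq2 called 2 with sh900 (Cbx2 as well) and 1 between hairpins (Atf7ip); DESeq2 without the block called Cbx5 for the mean and sh900, and the compared groups alone with the block called 3 between hairpins but neither Cbx5 with sh900 (adjusted p = 0.0983) nor Atf7ip with sh902 (adjusted p = 0.153). Leaving out 1 library gave 0 to 3637, 0 to 2912, 0 to 3757 and 0 to 1992 genes over both fits (257 to 3637, 88 to 2912, 45 to 3757 and 0 to 1992 with the block), and 0 to 1, 0 to 2, 0 to 1 and 0 to 3 of the 9 genes.

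The difference in the Cbx5 share of HP1 was -10.2 points (exact p = 0.0595) without division by length and -11.8 points (exact p = 0.0741) with permutation within labels, the replicate block of this test; without single libraries it ran from -13 to -9.45 points (exact p = 0.0179 to 0.0714). Without single libraries the difference in the Cbx7 share ran from -1.88 to -0.322 points and that in Phf2 from -1.42 to -1.19. The compared groups alone give no value for the mean of both hairpins, which needs all 3 groups. Cbx7 has the fewest counts of the 9 genes, 92 to 253 a library.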
